A study of Drosophila melanogaster and Drosophila yakuba and Drosophila virilis with 31 samples.

Results

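The genes described here belong to the Torso terminal signalling pathway of Drosophila. The list held 10 genes chosen by name: tor, tsl, trk, phl, Dsor1, rl, csw, drk, Sos and cic. Of these, 5 were rows of the table of 5993 genes with 1 ortholog in each of 4 species, namely tor, drk, Sos, phl and Dsor1. The other 5 (tsl, trk, rl, csw and cic) were not analysed here. All 5 genes in the table passed the filter on low values.

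Transcript levels had been measured by mRNA sequencing of single unfertilized eggs and of single embryos that had completed cellularization and not yet gastrulated. The species and strains were D. melanogaster (mel, Oregon-R), D. yakuba (yak, Tai18E2), D. pseudoobscura (pse, MV2-25) and D. virilis (vir, V46), with no treatment and no engineered allele. Embryos came from many mothers aged 3 to 5 days and were sexed by PCR for sequences of the Y chromosome. Each species had 3 female and 3 male embryos, but female 3 of pse and male 1 of vir, dropped by the study over their quality, were left out here too. That left 22 embryos and 7 eggs, with a single egg for pse and 2 for each other species. An unfertilized egg carries RNA from the mother and makes none of its own, so it stands for the maternal deposit, and the pse deposit rests on 1 library.

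Torso is a receptor tyrosine kinase. Its RNA is deposited by the mother and its protein lies around the whole egg surface, but the ligand Trunk becomes active at the poles, where the follicle cells supply Torso-like. The activated receptor engages the adaptor drk (the fly Grb2) and the exchange factor Sos, which load Ras with GTP, and Ras starts the kinase series phl (Raf), Dsor1 (MEK) and rl (ERK). At the poles this lifts repression by cic and gro, so that tll and hkb are transcribed and the ends of the embryo are specified. Torso is described here for its role in the early embryo, and drk, Sos, phl and Dsor1 also serve other receptor tyrosine kinases.

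Values are FPKM, fragments per kilobase of transcript adjusted for library size, which the authors scaled to the 75th percentile. The labelled material was checked against marker genes. A sum over 12 zygotic blastoderm genes lay between 0.042 and 0.735 FPKM in eggs and between 804 and 1378 in embryos. A sum over 6 maternal RNAs lay between 381 and 1232 in eggs and between 49.1 and 204 in embryos. The 2 mel eggs stood apart from each other at 401 and 954. Of these RNAs, bcd, osk, grk and exu were called lower in embryos in all 4 species. The fall of nos was not called in pse or vir, and stau was higher in embryos of yak and pse, by 0.56 and 0.74 on the log2 scale. A sum over 3 genes of gastrulation and later lay between 7.95 and 40.0 in eggs and between 20.9 and 113 in embryos. Of these 3, hbs and elav were called higher in embryos in all 4 species. The third, fog, was called lower in embryos of mel and pse, by −1.03 and −1.62 on the log2 scale, and was not called in yak or vir. Of 17 follicle cell genes, 4 were in the table, and their sum was 9.23 in the pse egg and at most 0.35 in the other eggs, against 10.3 to 13.99 in pse embryos and 0.913 to 3.32 in the other embryos. Of these 4 genes, the number listed at 0 throughout the eggs was 3 in yak, 1 in mel, and 2 each in pse and vir. In mel eggs Cp7Fb was also 0 apart from a trace that rounds to 0. Depth is unknown, since the tables hold no counts. Levels were set between genes only as FPKM, which is per length, and between species with the reservation that each species had its own annotation. In whole embryos, fewer cells with a transcript and less RNA per cell cannot be told apart.

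The first question was what level of each transcript the eggs held and how that level differed in the embryos. In all 4 species tor fell by far more than the other members, drk rose, and Sos rose in 3 of the 4 species. The kinases phl and Dsor1 changed less and in different directions. Of the 5 members, 2 were lower and 2 higher in mel embryos than in eggs, and 3 and 2 were so in yak, 1 and 1 in pse, 1 and 3 in vir (limma, adjusted p under 0.05). Among all 5983 genes tested, 32% were lower and 44.2% higher in mel, while the shares were 33% and 38.6% in yak, 32% and 35.4% for pse, and 27.2% and 44.4% for vir. These shares moved with the normalization. Over the 5 other normalizations, 25.7% to 45.7% of genes were lower and 30.9% to 50.1% higher in mel, with 24.5% to 45.4% and 27.1% to 47.5% for yak, 22.6% to 44.5% and 23.3% to 45.0% for pse, and 31.1% to 37.7% and 32.2% to 37.9% for vir. A change in most genes is therefore the background here, and what was read is the size of each member's change. FPKM is relative to the other RNA of a library, so these sizes are not changes in amount per egg or embryo. The sizes also moved with the normalization, as for drk in mel, from 0.89 (95th percentile) to 2.04 (median) on the log2 scale.

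**Figure D1:**
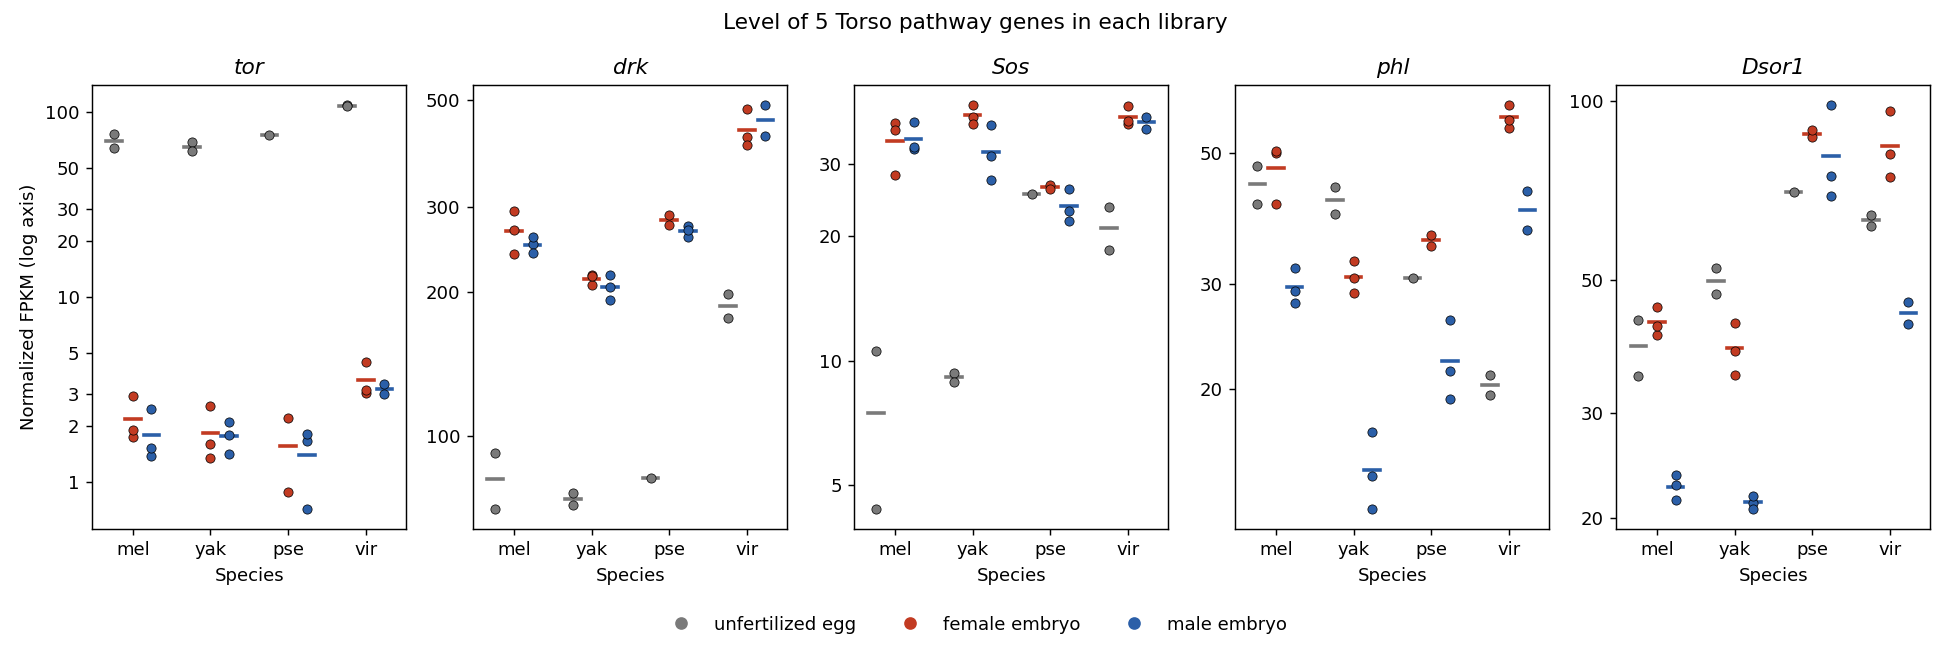
Normalized FPKM (vertical log axis, with its own range in each panel) of tor, drk, Sos, phl and Dsor1 in each kept library of 4 species (horizontal axis). Points are libraries (grey eggs, red female and blue male embryos) and bars are group means. The eggs lie far above the embryos for tor and below the embryos of their own species for drk, and male embryos lie below female embryos for phl in each species.

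The receptor gene tor (FBgn0003733, mel chromosome arm 2R, 3590679 to 3597042 in FlyBase release 5) was abundant in eggs and close to gone at the end of the blastoderm stage. In mel the eggs held 76.0 and 64.3 FPKM, while the female embryos held 1.76, 1.90 and 2.92 and the males 1.38, 1.53 and 2.48. In yak the eggs held 68.8 and 61.5 FPKM, the females 1.35, 1.59 and 2.57, and the males 1.79, 2.12 and 1.42. The highest embryo was thus more than an order of magnitude below the lowest egg in both species. In pse the egg held 75.03 FPKM, the females 2.23 and 0.885, and the males 1.67, 0.717 and 1.83. In vir the eggs held 109 and 107 FPKM, the females 3.03, 4.48 and 3.16, and the males 3.39 and 2.98. Eggs and embryos did not overlap in any species.

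The embryos retained 2.85% of the egg level of tor in mel (1.81% to 4.54% over all pairs of an embryo and an egg), 2.77% in yak (1.97% to 4.17%) and 3.11% in vir (2.73% to 4.17%), and pse retained 1.97% (0.956% to 2.97%). As a ratio of mean FPKM, eggs were 35.2-fold above embryos in mel and 36.0-fold in yak, with 50.7-fold for pse and 32.1-fold for vir. Within each library tor stood between the 83.2 and 91.6 percentile of all genes in eggs and between the 18.7 and 30.7 percentile in embryos. On the log2(FPKM + 1) scale, which understates the change of a gene that ends so low, the embryo less egg difference of tor was −4.59 ± 0.23 in mel (limma, ± SE, adjusted p = 3.00e-14), −4.57 ± 0.23 in yak (adjusted p = 2.98e-14), −4.65 ± 0.24 in vir (adjusted p = 5.70e-14) and −4.98 ± 0.31 in pse (adjusted p = 2.74e-12).

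No difference between species in the loss of tor was detected. The change in 1 species less the mean change of the other 3 was 0.15 ± 0.27 for mel, 0.17 ± 0.27 for yak, −0.38 ± 0.33 for pse and 0.06 ± 0.28 for vir on the log2 scale, and limma gave adjusted p from 0.343 to 0.858. These errors are wide, and the vir value turned to −0.65 with the median normalization and to −0.38 with a pseudocount of 10, both called (limma adjusted p = 0.0493 and 6.91e-04). With that pseudocount the yak value was also called, at 0.26 (limma adjusted p = 0.0156). The 2 vir eggs held more tor than the eggs of the other species, by 0.62 ± 0.24 (limma, ± SE, adjusted p = 0.0279), and the call was lost without either vir egg (adjusted p = 0.121 and 0.103, with 1.00e-06 to 0.136 over all alternatives). Among embryos, the vir values began at 2.98 and the highest in the other species was 2.92, so that vir was also highest after the loss. The mel, yak and pse eggs, between 61.5 and 76.0 FPKM, did not separate by species.

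The genes most like tor over the 12 group means of log2(FPKM + 1) were Hnf4 (FBgn0004914, Pearson r = 0.996), CG14440 (FBgn0029894, r = 0.995) and CG18769 (FBgn0042185, r = 0.993). These correlations describe 12 means that share the egg and embryo contrast, and have no test. Hnf4, which encodes a nuclear receptor, lay between 12.6 and 44.8 FPKM in eggs and between 0.017 and 1.16 in embryos. CG18769 was nearest to tor in level, at 51.9 to 84.7 FPKM in eggs and 0.353 to 3.03 in embryos.

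The adaptor gene drk (FBgn0004638, 2R, 9382726 to 9390342) was the most abundant of the 5 members in each of the 29 libraries. In eggs it exceeded tor only slightly, by a ratio of 1.09 to 1.81, and tor was second in all 7 eggs. In mel the eggs held 92.3 and 70.7 FPKM of drk, the females 269, 294 and 240.0, and the males 251, 240.3 and 259.8. In yak the eggs held 76.0 and 72.0 and the 6 embryos 193 to 217 (median 211). In pse the egg held 82.0, the females 289 and 275, and the males 259.6, 274 and 268. Each embryo was therefore well above each egg of its species in these 3 species. In vir the eggs held 197 and 177, the females 420.1, 479.8 and 404, and the males 489 and 422. The vir eggs carried more drk than the other eggs, by 1.23 ± 0.10 on the log2 scale (limma, ± SE, adjusted p = 7.30e-10), and the vir embryos lay above all embryos of the other species.

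As a ratio of mean FPKM, drk embryos were 3.18-fold above eggs in mel and 2.82-fold in yak, with 3.35-fold for pse and 2.38-fold for vir. The log2 differences were 1.67 ± 0.10, 1.48 ± 0.10, 1.73 ± 0.13 and 1.24 ± 0.10 (limma, ± SE, adjusted p = 7.85e-13, 5.88e-12, 1.31e-10 and 2.77e-10). In embryos drk stood between the 93.2 and 97.4 percentile of all genes. Because tor fell while drk rose, drk exceeded tor 82.1-fold to 381-fold in single embryos. An exon of drk overlaps an exon of mars on the opposite strand in a BDGP6 annotation of mel, and whether reads were assigned by strand is not given in the sources used here, so the division of reads between them is uncertain. The gene mars itself moved the other way, from 60.2 to 78.6 FPKM in eggs to 6.17 to 58.2 in embryos.

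The exchange factor gene Sos (FBgn0001965, 2L, 13813827 to 13819826) showed the widest spread between species in its deposit. In mel the eggs held 4.38 and 10.5 FPKM, the females 28.3, 37.6 and 36.3, and the males 37.9, 32.6 and 32.9. In yak the eggs held 9.35 and 8.87 FPKM, the females 41.7, 38.9 and 37.5, and the males 27.5, 31.4 and 37.3. Embryos of both species lay above all their eggs. In pse the egg held 25.3 FPKM, the females 26.7 and 26.1, and the males 21.8, 26.1 and 23.1, so that the egg lay within the range of the embryos. In vir the eggs held 18.5 and 23.5 FPKM, the females 37.4, 38.0 and 41.4, and the males 36.5 and 39.1, again with no overlap. Sos was last of the 5 members in 6 of 7 eggs and in 0 of 22 embryos, where tor was last in all 22.

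The ratio of embryo to egg mean FPKM of Sos was 4.60 in mel and 3.92 in yak, with 1.83 for vir and 0.988 for pse. Its log2 difference was 2.16 ± 0.19 in mel (limma, ± SE, adjusted p = 4.13e-10), 1.85 ± 0.19 in yak (adjusted p = 5.72e-09) and 0.85 ± 0.19 in vir (adjusted p = 4.15e-04), against −0.02 ± 0.25 in pse (adjusted p = 0.979). The vir call was lost under 3 normalizations (adjusted p = 0.205 with the 95th percentile, 0.0911 with none and 0.0804 with TMM). The pse value was 0.56 with the median and 0.43 with the quantile normalization, both called.

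Relative to the median of all genes, the direction of each tor, drk, mel Sos, yak Sos and vir Sos change was the same under all 6 normalizations. The median embryo less egg difference of all genes was 0.18 for mel, 0.08 for yak, 0.08 for pse and 0.25 for vir on the log2 scale, and ran from −0.28 to 0.43 over the other normalizations. Relative to this median, tor changed by −4.77 in mel and −4.65 in yak, and by −5.06 and −4.90 in pse and vir, with −5.51 to −4.42 over all normalizations and species. The relative change of drk was 1.49, 1.40, 1.65 and 0.99, and never below 0.69. For Sos it was 1.98, 1.77, −0.10 and 0.60, and in pse it ran from −0.50 to 0.39. For phl it was −0.41, −1.02, −0.21 and 0.95, and for Dsor1 −0.48, −0.86, 0.18 and −0.30. The 2 kinases kept their sign relative to the median outside pse, while within pse phl ran from −0.61 to 0.16 and Dsor1 from −0.25 to 0.45.

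**Figure D2:**
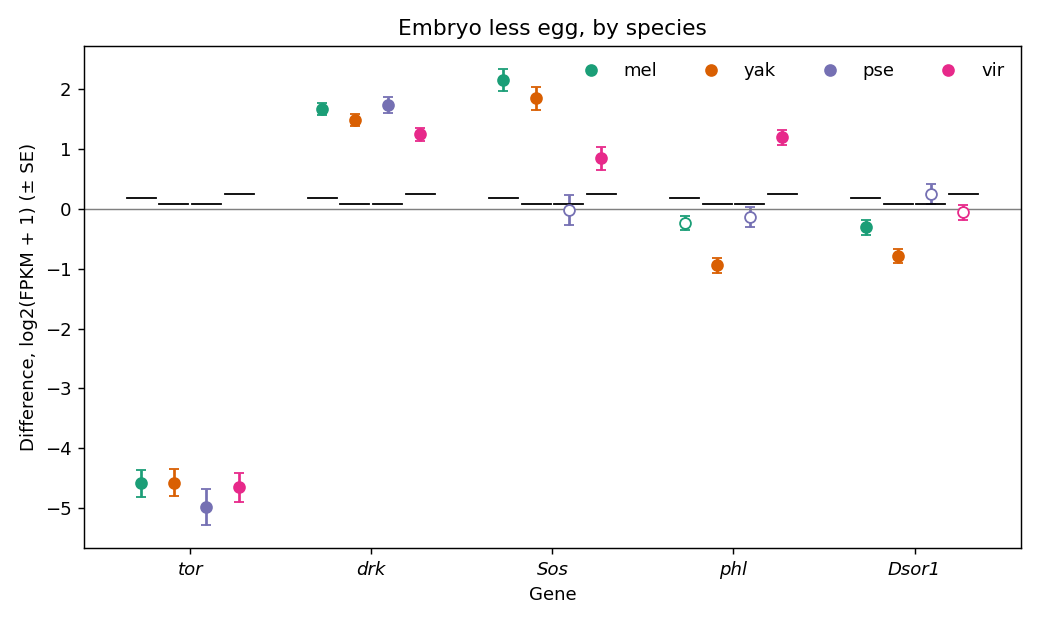
Embryo less egg difference in log2(FPKM + 1) (vertical axis, ± SE) for each member (horizontal axis) in mel, yak, pse and vir, with filled points where limma's adjusted p was under 0.05 and open points elsewhere. Black bars mark the median of all genes in that species. The tor points lie between −4.98 and −4.57 and the drk points between 1.24 and 1.73, the Sos points lie above the medians except in pse, and the phl and Dsor1 points lie on both sides of them.

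The Raf gene phl (FBgn0003079, X, 2234158 to 2237904) was retained to different degrees. In mel the eggs held 47.4 and 41.0 FPKM, the females 50.01, 50.4 and 41.0, and the males 31.9, 29.2 and 27.9. In yak the eggs held 43.8 and 39.3, the females 28.98, 30.7 and 32.8, and the males 12.6, 14.3 and 16.9. In mel the females overlapped the eggs and the males lay below them, whereas in yak both sexes lay below the eggs. In pse the egg held 30.8, the females 36.3 and 34.8, and the males 21.5, 26.1 and 19.2. In vir the eggs held 21.1 and 19.5, the females 55.0, 56.8 and 60.2, and the males 37.1 and 43.1, all above the eggs.

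Embryos retained 86.9% of the egg level of phl in mel and 54.6% in yak, and 94.0% and 240.0% in pse and vir, taking the mean of the sexes. The log2 difference was −0.94 ± 0.12 in yak (limma, ± SE, adjusted p = 3.83e-07) and 1.20 ± 0.13 in vir (adjusted p = 1.59e-08). It was −0.23 in mel (adjusted p = 0.0888) and −0.13 in pse (adjusted p = 0.529). Among the other normalizations, the mel value was past the threshold without normalization, with the 95th percentile and with TMM, at −0.86, −1.01 and −0.62. The pse value passed it without normalization and with the 95th percentile, at −0.77 and −0.90. The vir eggs held less phl than the eggs of the other species, by −0.89 ± 0.13, and the mel and yak eggs more, by 0.56 ± 0.13 and 0.44 ± 0.13 (limma, ± SE, adjusted p = 2.82e-06, 0.00102 and 0.00663). The vir and yak egg calls were lost with the median normalization (adjusted p = 0.159 and 0.375), and the yak call also without the first yak egg (adjusted p = 0.101, with 3.65e-04 to 0.375 over all alternatives). Other genes lie within the span of phl in a BDGP6 annotation, among them Ilp6 and CG14050, but none of their exons overlaps one of phl.

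The MEK gene Dsor1 (FBgn0010269, X, 9141374 to 9144070) fell in yak, and in vir it differed less between eggs and embryos than the other members did once the sexes were averaged. In mel the eggs held 34.6 and 42.9 FPKM, the females 40.5, 45.1 and 41.9, and the males 23.6, 21.4 and 22.7. In yak the eggs held 47.4 and 52.4, the females 38.1, 34.7 and 42.5, and the males 21.2, 21.7 and 20.7. In both species the males lay below all eggs, and the females did so in yak only. In pse the egg held 70.3, the females 86.9 and 89.3, and the males 74.8, 69.3 and 98.3. In vir the eggs held 61.6 and 64.4, the females 74.6, 81.5 and 96.0, and the males 46.1 and 42.2, with the eggs between the sexes.

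Embryos retained 83.9% of the egg level of Dsor1 in mel and 59.7% in yak, and 120.1% and 102% in pse and vir. The log2 difference was −0.31 ± 0.12 in mel (limma, ± SE, adjusted p = 0.0257), −0.78 ± 0.12 in yak (adjusted p = 3.99e-06), −0.05 in vir (adjusted p = 0.747) and 0.25 in pse (adjusted p = 0.184). The mel call was lost without the mel egg labelled 3, the second in each list here (−0.15, adjusted p = 0.388) and with the median (adjusted p = 0.691) and quantile (adjusted p = 0.157) normalizations, and the yak call with the median (adjusted p = 0.0599). In vir, 4 normalizations gave a call of a lower level, from −0.59 to −0.30. In pse the median normalization gave 0.85 and the 95th percentile −0.53, both called, so no direction can be given for pse. Egg levels were lower in mel than in the other species by −0.64 ± 0.13 (limma, ± SE, adjusted p = 2.30e-04) and higher in pse by 0.50 ± 0.16 (adjusted p = 0.0146), a call that was lost with the median and TMM normalizations (adjusted p = 0.313 and 0.0511).

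The second question was in which species a member's loss or gain differed from that in the others, which was tested as the change in 1 species less the mean of the other 3. Annotation lengths cancel in this contrast for genes well above the pseudocount of 1, but not for a gene as low as tor was in embryos. The number of members called was 1 for mel, 3 for yak and 2 each for pse and vir, against 58.7%, 57.4%, 58.7% and 68.5% of all genes tested, so a call alone sets no member apart. The phl change was more negative in yak by −1.22 ± 0.15 and more positive in vir by 1.63 ± 0.15 on the log2 scale (limma, ± SE, adjusted p = 3.91e-07 and 2.96e-09). Both phl calls held under all 39 alternatives.

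The Sos change was more positive in mel by 1.27 ± 0.22 and in yak by 0.85 ± 0.22, and more negative in pse by −1.64 ± 0.27 (limma, ± SE, adjusted p = 4.57e-05, 0.00241 and 2.59e-05), and all 3 held under the 39 alternatives. The vir value, −0.48 ± 0.23, was not called (limma, ± SE, adjusted p = 0.0642), but it was without the mel egg labelled 3 (−0.66, adjusted p = 9.21e-04). The vir value was also called with the median, quantile and TMM normalizations, at −1.18, −0.84 and −0.69 (limma adjusted p = 5.58e-06, 6.07e-05 and 0.0105). These contrasts share libraries, since each species is part of the mean that the others are set against. The pse value rests on a single egg. The Dsor1 change was more negative in yak by −0.75 ± 0.14 (limma, ± SE, adjusted p = 1.45e-04) and more positive in pse by 0.63 ± 0.18 (adjusted p = 0.00428), the latter lost with the quantile normalization (adjusted p = 0.216). The drk change was less positive in vir, by −0.38 ± 0.12 (limma, ± SE, adjusted p = 0.00853), and was lost without the first vir egg (adjusted p = 0.0881) and with 2 normalizations (adjusted p = 0.103 and 0.234).

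In eggs alone, the deposit of 4, 3, 3 and 4 members differed in mel, yak, pse and vir from the mean of the other species, against 45.3%, 46.1%, 41.9% and 58.7% of all genes. Annotation lengths do not cancel in this contrast. The Sos deposit was lower in mel by −1.19 ± 0.19 and in yak by −0.71 ± 0.19, but the pse and vir deposits were higher by 1.13 ± 0.25 and 0.77 ± 0.19 (limma, ± SE, adjusted p = 2.45e-05, 0.00429, 6.95e-04 and 0.00143). The drk deposit was lower in mel by −0.36, in yak by −0.53 and in pse by −0.34 (limma adjusted p = 0.00621, 2.14e-04 and 0.0452). The pse drk value stayed under the threshold in 19 of 39 alternatives, and the mel one was lost without the mel egg labelled 3 (−0.17, adjusted p = 0.284).

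The authors had also classed genes by origin, with yak, pse and vir classes predicted from these same values. All 5 members were classed maternal in all 4 species, except Sos in mel and yak, which was classed as both maternal and zygotic. The paper reports that its classifier did poorly on this mixed class. The confidence was low for phl in vir, drk in yak and pse, and Sos in yak and vir. Of the members classed maternal, drk was higher in embryos than in eggs in all 4 species, and phl and Sos were so in vir.

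The third question was whether the members differed between female and male embryos. The genes phl and Dsor1 lie on the X chromosome in mel and yak and on the XL group in pse. In vir they lie on 2 scaffolds on which 99.2% and 98.6% of the genes of the table are X-linked in mel. The other 3 members lie on autosomes of mel. Of the 5 members, 2 were higher in females in mel and yak and 1 in pse and vir (limma, adjusted p under 0.05), against 3.02%, 2.8%, 5.36% and 2.82% of all 5856 genes tested. All were phl or Dsor1, and among the 976 genes on the mel X chromosome 16.9%, 16.4%, 14.4% and 15.8% were called higher in females. No member was higher in males, where 0.461%, 0.29%, 0.99% and 0.29% of genes were called.

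**Figure D3:**
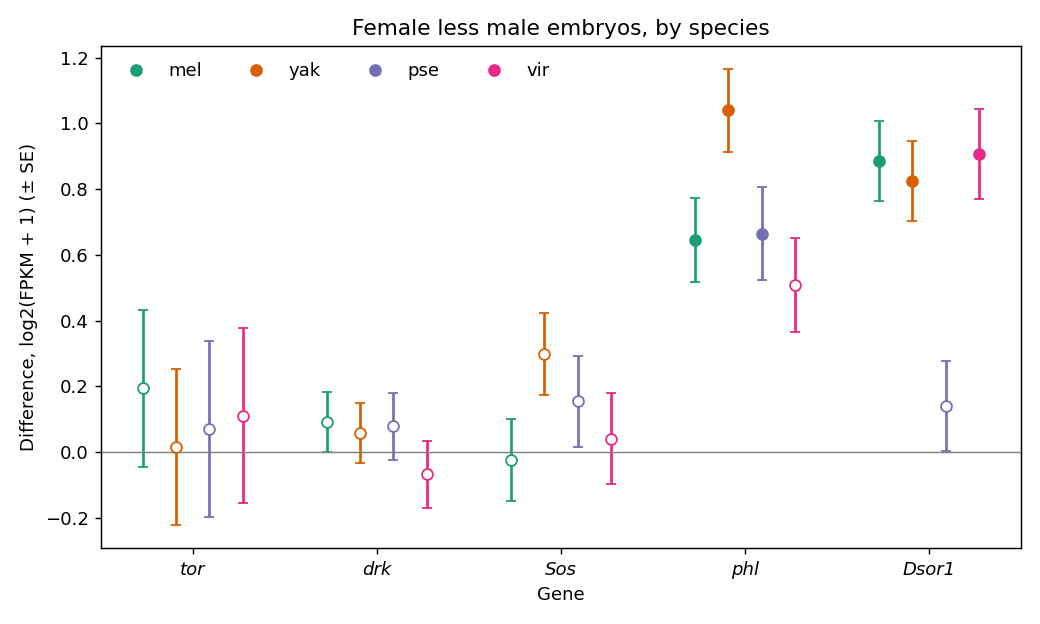
Female less male difference in log2(FPKM + 1) (vertical axis, ± SE) for each member (horizontal axis) in mel, yak, pse and vir embryos, with filled points where limma's adjusted p was under 0.05 and open points elsewhere. The phl points lie between 0.51 and 1.04, and the Dsor1 points lie between 0.82 and 0.91 except in pse, at 0.14.

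Female embryos held 1.59 times the phl of males in mel and 2.12 times in yak, with 1.60 and 1.43 times for pse and vir, and the lowest female was above the highest male in each species. The log2 differences were 0.65 ± 0.13, 1.04 ± 0.13, 0.66 ± 0.14 and 0.51 ± 0.14 (limma, ± SE, adjusted p = 0.00625, 9.60e-05, 0.00750 and 0.0611). The vir value missed the threshold and passed it in 6 alternatives (adjusted p = 0.0231 to 0.0499 there), and the pse call was lost without the first pse female (adjusted p = 0.0905). The removed female 3 of pse held 25.9 FPKM of phl, within the range of the pse males. For X-linked genes of mel as a whole the median difference was 0.33 for mel, 0.19 for yak, 0.20 for pse and 0.33 for vir.

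Dsor1 was 1.88 times higher in females in mel, 1.81 times in yak and 1.90 times in vir, with no overlap of the sexes, and 1.09 times in pse, where they overlapped. The log2 differences were 0.88 ± 0.12, 0.82 ± 0.12 and 0.91 ± 0.14 in those 3 species (limma, ± SE, adjusted p = 3.03e-04, 6.94e-04 and 0.00113), and 0.14 ± 0.14 in pse (adjusted p = 0.813). The yak calls of phl and Dsor1 were lost when yak was fitted alone (adjusted p = 0.0625 and 0.0711), with the differences still at 1.04 and 0.82. That fit had 4 residual degrees of freedom and called only 5 of 4791 genes higher in females. Set against the mean of the other 3 species, the pse difference was lower by −0.73 ± 0.15 (limma, ± SE, adjusted p = 0.0165), a contrast added after the values had been seen, in which 0.649% of genes were called in that direction. It was lost without either pse female (adjusted p = 0.103 and 0.0722) and with the removed libraries put back (adjusted p = 0.0535). For tor, drk and Sos no species gave a call, with differences between −0.07 and 0.30 and limma adjusted p of 0.355 or more. Of these, Sos in yak came nearest, with 37.5 to 41.7 FPKM in females and 27.5 to 37.3 in males.

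Other genes of the terminal and Ras-MAPK pathways gave the setting of the members. Of 27 symbols listed, 5 were not found in the table and 2 named the same gene, which left 21 genes, all tested. In mel 6 were lower and 11 higher in embryos than in eggs, in yak 5 and 13, in pse 7 and 10, in vir 5 and 15. Among all genes tested, 32% were lower and 44.2% higher in mel, and 33% and 38.6% were so in yak. The shares were 32% and 35.4% in pse and 27.2% and 44.4% in vir. The medians of the 21 genes were 0.45, 0.78, 0.30 and 0.56 on the log2 scale against 0.18, 0.08, 0.08 and 0.25 over all genes. The share of all genes called in the same direction in all 4 species is not given here. Higher in all 4 species were Ras85D (the Ras GTPase itself), cnk, 14-3-3epsilon, mts, sty, Mkp3, Shc, gro and Atx-1, although relative to the median of all genes mts in pse, Shc in mel and cnk in vir turned below 0 under at least 1 normalization. Lower in all 4 were fs(1)N, Fur2, Hsp83, Cbl and mnb, and these stayed below 0 under each normalization. Fur1, Cdc37 and Gap1 were called in both directions.

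**Figure D4:**
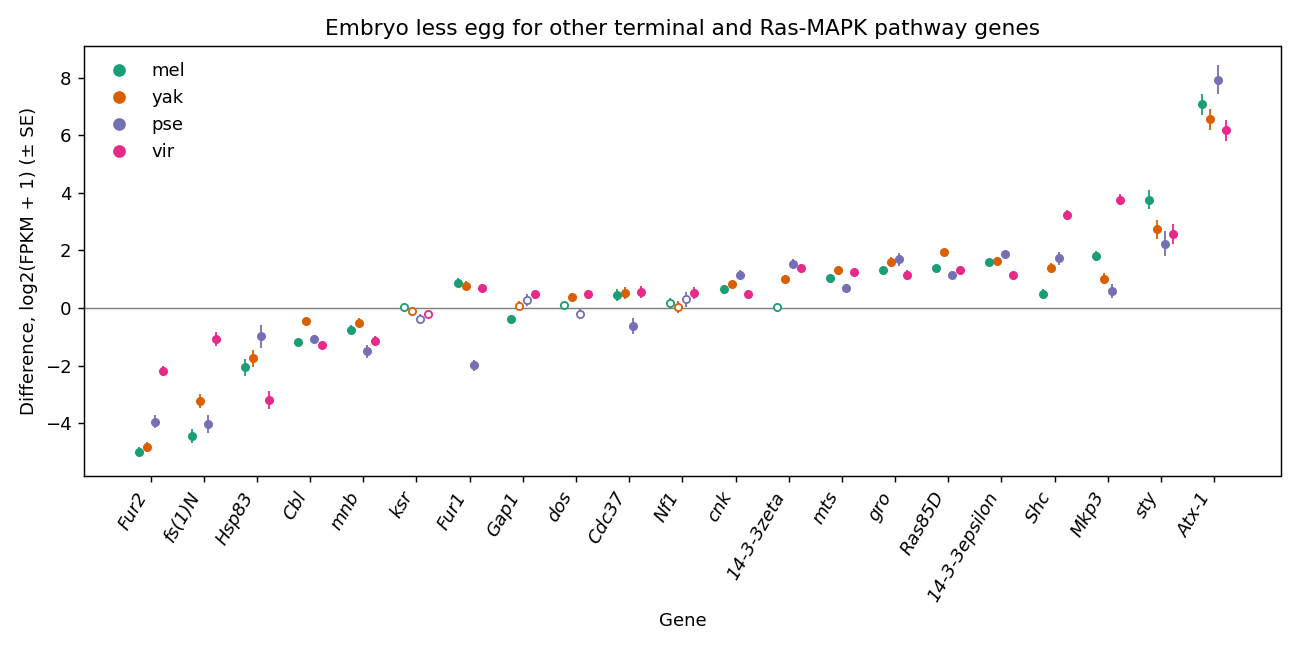
Embryo less egg difference in log2(FPKM + 1) (vertical axis, ± SE) for 21 other genes of the terminal and Ras-MAPK pathways (horizontal axis, ordered by their mean over species) in mel, yak, pse and vir, with filled points where limma's adjusted p was under 0.05. Fur2, fs(1)N and Hsp83 lie at the low end and Mkp3, sty and Atx-1 at the high end.

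The largest mean falls were those of Fur2, a furin-type protease, of fs(1)N, which encodes an eggshell protein needed for terminal signalling, and of the chaperone gene Hsp83. Fur2 went from 59.4 to 99.3 FPKM in egg means to embryo means of 1.79 and 1.11 in mel and yak and of 5.60 and 21.2 in pse and vir, with log2 differences of −4.99, −4.84, −3.95 and −2.18 for mel, yak, pse and vir. In the same order of species, the log2 differences of fs(1)N were −4.44, −3.24, −4.02 and −1.09, and its egg means ran from 2.52 FPKM in vir to 25.0 in mel, where the 2 eggs held 12.6 and 37.4. Hsp83, known for maternal transcripts that are broken down in the early embryo, fell by 2.06 in mel, by 1.75 in yak, by 0.98 in pse and by 3.20 in vir on the log2 scale, with 446 and 934 FPKM in the 2 mel eggs. All 12 differences were called (limma, adjusted p from 3.26e-17 to 0.0367). The mel falls of tor, −4.59, and of Fur2 were thus close in size, while in vir tor changed by −4.65 and Fur2 by −2.18.

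The largest mean rises were those of Atx-1, whose mammalian relative binds the relative of cic, and of sty (sprouty) and Mkp3, which both dampen signalling through the kinase series. Atx-1 lay at 0 to 0.334 FPKM in eggs and at 28.6 to 389 in embryos. The embryo means of sty were 13.0, 6.37, 4.30 and 8.76 FPKM in mel, yak, pse and vir, against egg means of at most 0.626. Mkp3 was present in eggs at means of 6.66 to 31.8 FPKM and rose to 98.7, 55.7, 50.7 and 103, by 1.80, 1.02, 0.59 and 3.76 on the log2 scale. All 12 differences were called (limma, adjusted p from 5.62e-14 to 0.0392). Ras85D, which links Sos to phl, rose from egg means of 83.8 to 164 FPKM to embryo means of 265 to 365.

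The terminal targets tll and hkb, which encode transcription factors, were listed at 0 in the eggs, apart from hkb at 0.0549 FPKM in 1 vir egg. The embryo means of tll were 29.5 FPKM for mel, 16.0 for yak, 7.83 for pse and 19.2 for vir. Those of hkb were 31.8, 13.8, 36.0 and 33.9. Both were called in all 4 species (limma, adjusted p from 3.93e-13 to 1.47e-07). In embryos both targets were therefore present while the receptor transcript lay between 0.717 and 4.48 FPKM.

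**Figure D5:**
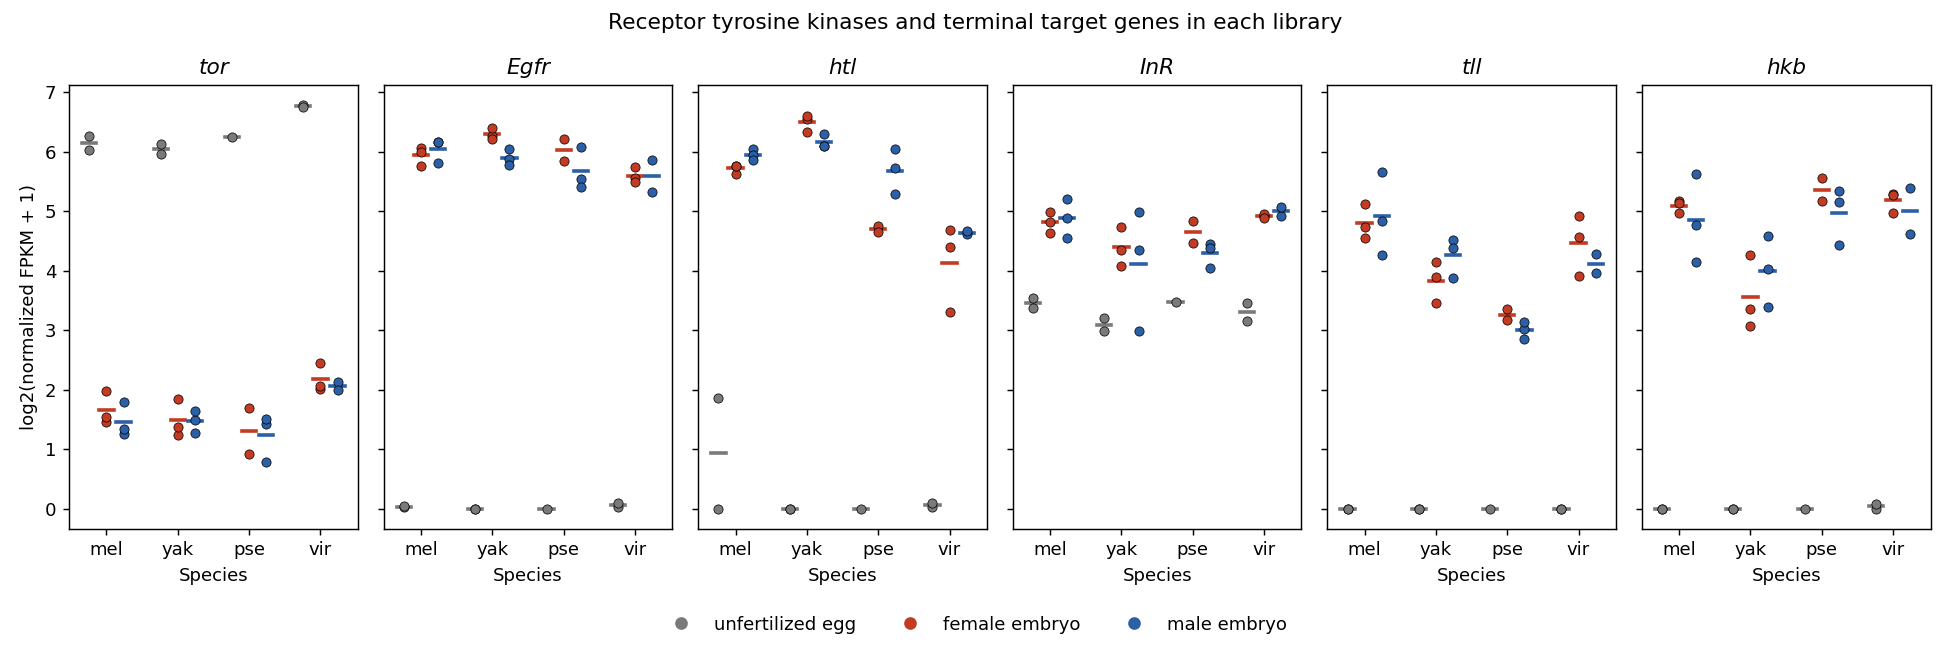
log2(FPKM + 1) (vertical axis) of tor, of the receptor tyrosine kinases Egfr, htl and InR, and of the terminal targets tll and hkb in each kept library (horizontal axis, species). Points are libraries (grey eggs, red female and blue male embryos) and bars are group means. Eggs are high and embryos low for tor, and the egg means lie below the embryo means for the other 5 genes, with an overlap of eggs and embryos for InR in yak.

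Other receptor tyrosine kinases use the same adaptor, exchange factor and kinases, and 6 of 7 listed were in the table (btl was not analysed here). Of the 6, 5 were higher in embryos than eggs in both mel and yak, 4 in pse and 6 in vir, against 44.2%, 38.6%, 35.4% and 44.4% of all genes tested, and none was lower. The vir count includes sev, whose highest vir embryo held 1.33 FPKM. Egfr lay at 0 to 0.0655 FPKM in eggs and had embryo means of 63.0 and 68.1 in mel and yak, and of 57.9 and 47.8 in pse and vir (limma, adjusted p from 6.50e-19 to 6.07e-16). The FGF receptor gene htl had embryo means of 56.3, 80.1, 38.3 and 20.9 and eggs at 0 to 0.0617, apart from 2.65 in 1 mel egg. InR, the insulin receptor gene, was present in eggs at means of 7.56 to 10.1 and in embryos at means of 19.7 to 30.1, though the lowest yak embryo, at 6.90, lay between the 2 yak eggs. In embryos Egfr exceeded tor 10.4-fold to 63.6-fold in each library, whereas in eggs tor was the most abundant of these receptors. Embryo means were between 0.521 and 0.994 for Pvr, between 0.940 and 6.31 for Alk and between 0.0137 and 0.919 for sev.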

How the data were processed

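Libraries of single embryos and eggs had been made with a TruSeq kit. The authors mapped reads to transcripts with Bowtie2 (version not given in the sources used here), used eXpress to estimate transcript levels, summed by gene, with FlyBase release 5 for mel and other annotations elsewhere. The deposited values are log10 (normalized FPKM + 1), in 6 tables that differ in normalization (75th percentile of autosomal genes, used here, and none, median, 95th percentile, TMM and quantile). Group means and origin classes were deposited too. The deposited classes are labels, not measurements, and only these were copied.

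The expression values were converted to FPKM, and log2(FPKM + 1) was fitted in limma 3.58.1 (R 4.3.3) with a trend, over genes whose mean passed 1 FPKM in at least 1 group. One fit held 29 libraries in 12 groups, and a second the 22 embryos in 8 groups for sex. The egg to embryo change took the mean of the 2 sexes less the eggs. Tests were two-sided, with Benjamini-Hochberg adjustment over all genes and a threshold of 0.05. Libraries of a group are separate animals. The single pse egg is assumed to vary like the other groups. Samples of the same replicate number were not treated as pairs in the main fits, since they are separate animals. The correlation of deviations between same-numbered females and males ran from −0.17 to 0.47. It was 0.35 and 0.47 in vir and 0.23, −0.08 and 0.22 in yak. What such libraries share was not tested. Members were matched by symbol, and other lists also by FlyBase identifier. No gene sequence was used. Named genes were all members in the table, tll, hkb, the listed receptors, the 3 listed pathway genes with the largest mean fall and the 3 with the largest mean rise, and the 3 genes most like tor. Members and lists were chosen with earlier results of these data known. The code was tested on simulated data. The alternatives were the other normalizations, pseudocounts of 0.1 and 10, other filters, the 2 removed libraries put back, a replicate block, a separate fit for each species, and leaving out each library. A sign flip was counted as a reversal where either value was called.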

Additional observations from a re-analysis of the deposited data

Results flagged for a closer look

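Changes from egg to embryo that differed between species were found for 4 members. For phl the change, as 1 species less the mean of the other 3 on the log2 scale, was −1.22 in yak and 1.63 in vir. For Dsor1 it was −0.75 in yak and 0.63 in pse. For drk it was −0.38 in vir, and for Sos 1.27 (mel), 0.85 (yak) and −1.64 (pse). The values of a gene are not independent, since the same 29 libraries enter each, and 57.4% to 68.5% of all genes were called. The female less male difference of Dsor1 also differed between pse and the other species, by −0.73. Single outlying libraries were not tested for in groups of at most 3 libraries.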

How the results depend on the processing

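The falls of tor, the rises of drk, the mel and yak rises of Sos, the yak fall of phl and the vir rise of phl were called under all alternatives. Counts of members that moved by over 1.5 times were as follows. The number lower in embryos was 1 in mel (median and quantile normalization), 3 (no normalization) and 4 (95th percentile) in pse, and 2 in vir (no normalization, median, 95th percentile and TMM). The number higher in pse was 3 (median) and 2 (quantile). The number whose change differed from the other species was 2 in mel and 1 in pse (quantile) and 5 in vir (median). The number higher in females was 0 in yak with a separate fit (which called 5 of 4791 genes), and 2 in vir with a pseudocount of 10 and with the removed libraries. Leaving out 1 library at a time, the number lower in mel ran from 1 to 2, the number whose change differed from 1 to 2 in mel (2 without the mel egg labelled 2), from 2 to 3 in pse (3 without the mel egg labelled 3) and from 1 to 3 in vir (1 without the vir egg labelled 1 and 3 without the mel egg labelled 3), the number whose egg level differed from 3 to 4, 2 to 3, 2 to 3 and 3 to 5 in mel, yak, pse and vir, and the number higher in females from 0 to 1 in pse and from 1 to 2 in vir. Values that turned sign were the tor change in vir against the other species (−0.65 with the median, −0.38 with a pseudocount of 10), the Dsor1 change in mel (0.059, median) and in pse (−0.53, 95th percentile), the Dsor1 change in vir against the others (−0.51, median), and the Sos change in pse (0.56, median, and 0.43, quantile). The cause was not tested.

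With the replicate number as a block, the counts were 3 lower in mel (phl was added, −0.28, limma adjusted p = 0.0344), 2 higher in pse, 1 whose change differed in vir, and 2, 1 and 0 with a different egg level in mel, yak and pse. The lower sex difference of Dsor1 in pse was then −0.61 (limma adjusted p = 0.113). The numbers share no animal. The limits are few eggs, 1 of them in pse, an unknown depth, levels relative to the other RNA of a library, and levels per length that differ by annotation between species.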
